A study of Mus musculus with 2 samples.

Results

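T-box transcription factors bind DNA through a shared domain, and most members mark a defined piece of mesoderm or of the streak. The 10 genes described here are a chosen part of the T-box genes on the array, without Tbx6. These are T (Brachyury), Eomes, Tbx1, Tbx2, Tbx3, Tbx4, Tbx5, Tbx15, Tbx18 and Tbx20. They were found by symbol or RefSeq accession among 32762 genes named on the array, through 14 probes, and all 10 were detected, as were 25860 genes in all. A probe counted as detected where the scanner software flagged it as well above background for either genotype, on array 1 and on array 2 alike. RNA came from posterior tissue of mouse embryos at 13 somites, cut at the same axial level behind the youngest somite border. A pool of 7 embryos of genotype Cdx2+/-Cdx4-/-, which keep 1 intact Cdx2 copy and no intact Cdx4, was set against a pool of 7 wildtype embryos. The pools were hybridised together on a pair of dual-colour arrays with the dyes exchanged: the mutant pool was in Cy5 on array 1 and in Cy3 on array 2. With 1 pool per genotype there is no biological replicate and no test, so every error below is the SD of 2 arrays, which is technical, and the number of arrays limits the precision.

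Brachyury is made in the primitive streak, the tailbud and the notochord, where it is needed for the embryo to go on forming posterior mesoderm. Eomes acts earlier, in the streak. Tbx2, Tbx3, Tbx4 and Tbx5 are known from limb, heart and flank mesoderm, Tbx4 also from the allantois. Tbx1 works in pharyngeal mesoderm, Tbx15 and Tbx18 in somites and later skeletal and body-wall tissue, and Tbx20 in the heart. Cdx proteins are homeodomain factors that keep the posterior growth zone active together with Wnt signalling, and the comparison addressed how posterior tissue changes when Cdx function is reduced.

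T had the lowest ratio of the family, so the 250 bases before its annotated start are shown. They lie at chr17:8434173-8434422, plus strand, in RefSeq's GRCm38.p6, and capitals mark 3 motifs that were chosen after the sequence was read.
T promoter: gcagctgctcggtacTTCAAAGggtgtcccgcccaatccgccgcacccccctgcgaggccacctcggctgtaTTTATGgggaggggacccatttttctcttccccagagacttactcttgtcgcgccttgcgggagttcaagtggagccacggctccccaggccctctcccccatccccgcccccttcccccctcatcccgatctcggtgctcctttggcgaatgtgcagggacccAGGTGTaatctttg
From left to right these are TTCAAAG, a Tcf/Lef motif at 235 bases before the start, TTTATG, which holds the core that Cdx proteins bind, at 178 bases, and AGGTGT, the core of the T-box motif, at 14 bases. Both strands were searched and the matches do not overlap. Of 32851 promoter windows of 250 bases, 4.46% held TTCAAAG, 10.8% TTTATG and 11.8% AGGTGT. RefSeq entries were matched for 6 of the 10 members, in 7 windows. Among these, TTTATG and TTCAAAG were found in the T window, and AGGTGT in that of T and in 1 of the Tbx1 windows. Tbx2, Tbx3, Tbx5 and Tbx15 had no matching entry. A match describes the letters and is not shown to be a bound site.

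None of the 10 members reached a 1.5-fold difference between the pools in the same direction on each array, the size used here for a call. Among all detected genes, 0.209% were higher in the mutant pool by that measure and 0.232% lower. No member reached 2-fold either, where the shares were 0.0773% higher and 0.0271% lower. T came closest, at 71.0% of the wildtype level, and Tbx3 followed at 80.6%. The other 8 members had mean log2 ratios between -0.19 (Tbx1) and 0.13 (Tbx18). The median of the 10 was -0.10, against 0.00 over all detected genes, and it was -0.09 on array 1 and -0.12 on array 2. Below 0 on both arrays lay 6 members, above 0 on both lay 2, and Eomes and Tbx5 changed sign between arrays. Of all detected genes, 24.4% lay below 0 on both arrays and 23.3% above. With median centring in place of loess, which leaves any dye effect that changes with brightness, 2 of the 10 lay below 0 on both, Tbx1 and Tbx4, and 8.51% of all genes did. Under it T, Tbx2, Tbx3 and Tbx20 turned above 0 on array 1 and Tbx15 below 0 on array 2, and the other members kept their sign on each array.

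**Figure D1:**
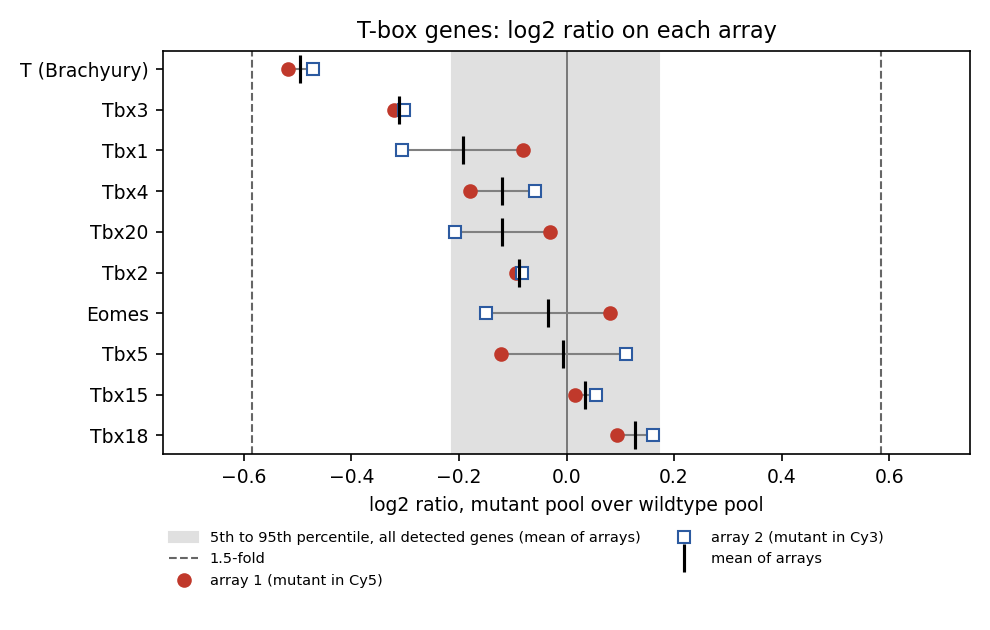
Log2 ratio of the mutant pool over the wildtype pool for each T-box gene, with array 1 as filled circles, array 2 as open squares and their mean as a black bar; the grey band spans the 5th to the 95th percentile of all detected genes, from -0.21 to 0.17. T at -0.49 and Tbx3 at -0.31 lie outside the band with their arrays close together, and no member reaches the dashed 1.5-fold lines.

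T was the brightest member. Its brighter probe, at chr17:7850358-7850417 in the files' coordinates, read 6871 in the mutant and 5528 in the wildtype pool on array 1. On array 2 the same probe read 3653 in the mutant and 10594 in the wildtype pool. The Cy5 reading was the higher on both arrays, whichever pool carried it, so the genotypes are compared by the balanced ratio or within a dye. Within Cy5 the mutant signal was 0.649 of the wildtype signal, and within Cy3 it was 0.661, while the median over all detected probes was 0.989 and 0.966. After loess the log2 ratio was -0.52 on array 1 and -0.47 on array 2, with a mean of -0.49 ± 0.03 (SD of 2 arrays), or 1.41-fold lower. With median centring alone the ratios were 0.03 on array 1 and -1.22 on array 2, with a mean of -0.60.

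The dimmer T probe lies at chr17:7850257-7850316, next to the other. It read 2346 in the mutant and 1714 in the wildtype pool on array 1, and 1232 and 3440 on array 2. Its log2 ratios were -0.32 and -0.53, with a mean of -0.42 ± 0.15, or 1.34-fold lower. Both T probes were thus below 0 on both arrays, and their means differed by less than the SD of the dimmer one. The files do not name the genome build of these coordinates, and exon or UTR annotation on it was not used here.

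The spread of T between arrays was small for its brightness. Among the 410 detected genes within 0.5 log2 units of its intensity, the pooled SD between arrays was 0.17, and 1.22% had a mean ratio as low as that of T or lower. Over all detected genes the share was 0.623%. At 1.3-fold on each array, T was the 1 member that passed as lower, against 0.75% of all genes, and no member passed as higher, against 0.538%. By its pair of ratios, among 735 named genes of like brightness, the nearest over these 2 arrays were Egfl7 (distance 0.088 log2 units), which is also in the endothelial list below, Hmgcs1 (0.11) and Hoxc6 (0.16).

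Eomes, the other streak factor, had a mean smaller than its error. The probe that stood for the gene, at chr9:118450789-118450848, read 257 in the mutant and 194 in the wildtype pool on array 1, and 194 and 287 on array 2. Its log2 ratios were 0.08 and -0.15, with a mean of -0.03 ± 0.16. The other 2 Eomes probes, with signals from 90.6 to 121, were not detected.

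Tbx3 was the clearest of the limb and flank group of Tbx2, Tbx3, Tbx4 and Tbx5. Its probe at chr5:117168774-117168833 read 558 in the mutant and 453 in the wildtype pool on array 1, and 283 and 544 on array 2. The log2 ratios were -0.32 and -0.30, with a mean of -0.31 ± 0.01, or 1.24-fold lower. The arrays agreed closely, but the pooled SD among the 3214 genes of like brightness was 0.14, and 4.01% of them were as low or lower. Within Cy5 the mutant signal was 1.02 of the wildtype signal and within Cy3 it was 0.625, so unlike T the lower level showed in 1 dye alone. The mean over the dyes, centred on all probes, was -0.29. With median centring the ratios were 0.08 and -0.78.

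Tbx2 and Tbx4 are neighbours on chromosome 11, and both stayed near 0. Tbx2, at chr11:85439802-85439861, read 308 in the mutant and 241 in the wildtype pool on array 1, and 230 and 355 on array 2. Its ratio was -0.09 on array 1 and -0.08 on array 2, with a mean of -0.09 ± 0.01. Tbx4, the hindlimb and allantois member, at chr11:85513844-85513903, read 205 and 189 on array 1, and 152 and 180 on array 2, mutant before wildtype. Its mean was -0.12 ± 0.09, with -0.18 on array 1 and -0.06 on array 2, smaller than the pooled SD of 0.19 at its brightness.

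Tbx5, the forelimb and heart member next to Tbx3 on chromosome 5, could not be told from empty spots. Its probe spans chr5:117358045-117369607, and it read 112 in the mutant and 125 in the wildtype pool on array 1, and 128 and 114 on array 2. The 95th percentile of the 314 negative control spots was 99.6 in the mutant and 137 in the wildtype channel on array 1, and 131 and 101 on array 2. Tbx5 exceeded it in Cy5 and stayed under it in Cy3, in both pools. Its ratio of -0.01 ± 0.16, with -0.12 and 0.11 on the arrays, is therefore not a measurement of a transcript level, although the software's flag counted the probe as detected.

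Tbx1 had the same limit. At chr16:18363904-18363963 it read 117 in the mutant and 126 in the wildtype pool on each array, above the negative controls in Cy5 and under them in Cy3. Its ratio was -0.08 on array 1 and -0.31 on array 2, with a mean of -0.19 ± 0.16. The scanner software's own ratio gave -0.57 and the reading within dyes -0.07. Tbx1 and Tbx5 are thus the 2 members not above the negative controls; without them 8 members were left, 5 of which were below 0 on array 1 and array 2, and their median was -0.10.

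Among the relatives of Tbx1, the somite factors Tbx15 and Tbx18 were the 2 members above 0 on both arrays. Tbx18, which marks the anterior compartment of each somite, read 152 in the mutant and 138 in the wildtype pool on array 1, and 143 and 138 on array 2, at chr9:88149311-88149370. Its ratio was 0.09 on array 1 and 0.16 on array 2, with a mean of 0.13 ± 0.05, against a pooled SD of 0.21 among genes of like brightness. In Cy3 its signals were only just above the negative controls. Their 95th percentile was 137 for the wildtype channel on array 1 and 131 for the mutant channel on array 2. Tbx15, at chr3:99239802-99239861, read 302 and 225 on array 1, and 193 and 250 on array 2, mutant before wildtype, with a mean of 0.03 ± 0.03. Its second probe was not detected. Tbx20, best known from the heart, read 181 and 162 on array 1, and 148 and 191 on array 2, at chr9:24725352-24725411. Its ratio of -0.12 ± 0.12 was no larger than its spread.

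**Figure D2:**
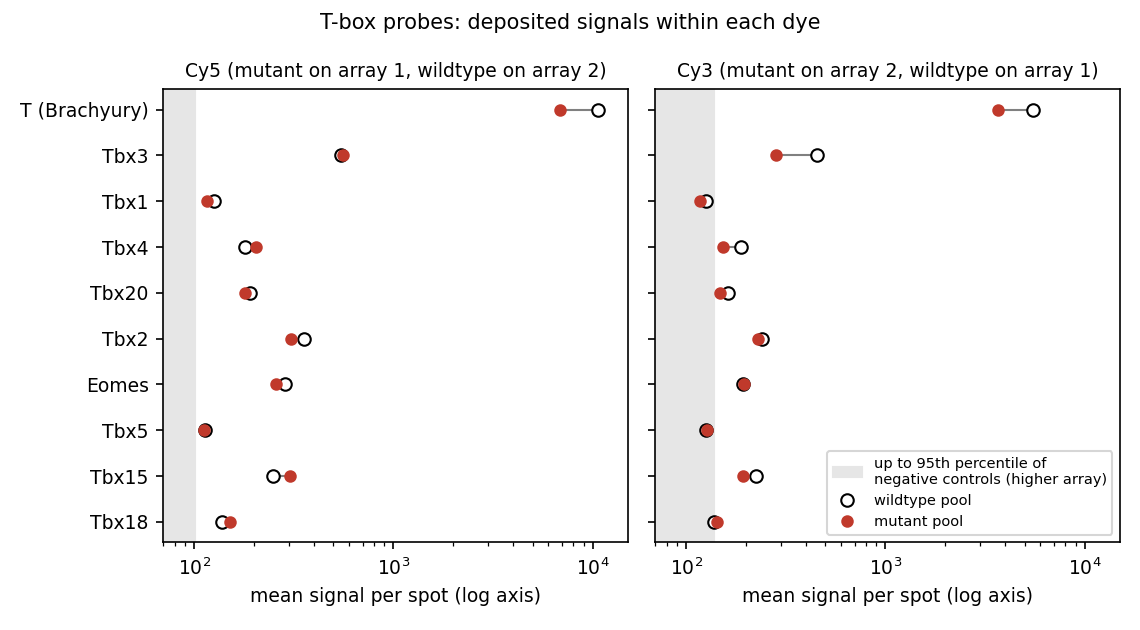
Deposited mean signal per spot (log axis) of the probe standing for each T-box gene, compared within Cy5 on the left and within Cy3 on the right, with the mutant pool filled and the wildtype pool open. In both dyes T is lower in the mutant pool (6871 against 10594, and 3653 against 5528), while Tbx1 and Tbx5 lie inside the grey range of the negative controls in Cy3.

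In order of the ratio the members ran T, Tbx3, Tbx1, Tbx4, Tbx20, Tbx2, Eomes, Tbx5, Tbx15 and Tbx18. T lay 0.18 log2 units below Tbx3, more than the SD of either. The gap was close in size to the pooled SD at their brightness, 0.17 for T and 0.14 for Tbx3. From Tbx3 to Tbx15 no neighbours differed by more than the larger of their SDs. Tbx18 lay 0.09 above Tbx15, more than the SD of either, although less than the pooled SD at their brightness.

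Of the other settings run, 8 gave T another value and 7 gave Tbx3 another value, and in all of these both means stayed below 0. T ranged from -0.60 with median centring to -0.46 with the median over its probes, and Tbx3 from -0.35 to -0.28. The means of Tbx15 and Tbx18 stayed above 0 in the 7 settings that altered them. Tbx5 did not keep a sign, and the mean of Eomes turned above 0 only with array 1 taken alone. The ratio of Tbx1 and of Tbx20 moved most, to -0.57 and -0.31 with the software's ratio.

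**Figure D3:**
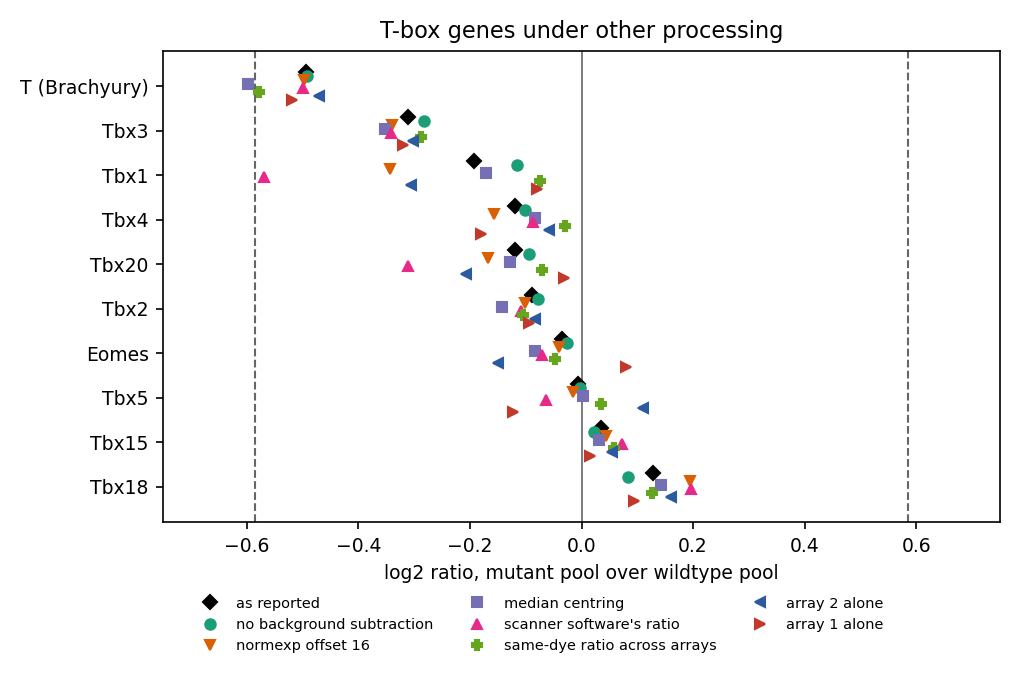
Log2 ratio of each T-box gene as reported (black diamonds) and under 7 other ways of processing, including each array alone. T stays between -0.60 and -0.47 in the settings drawn and Tbx3 between -0.35 and -0.28, whereas the dim Tbx1 spreads from -0.57 to -0.07.

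None of the remaining T-box genes passed the size rule. All 7 (Tbx6, Tbx10, Tbx19, Tbx21, Tbx22, Tbr1 and Mga) were detected, 5 of them above the negative controls. Their median was 0.01. Mga, a broadly expressed T-box partner of Max, was at -0.16 ± 0.05, and Tbx6, the presomitic factor, at 0.06 ± 0.16. Tbx22 was at -0.04 ± 0.15. Tbx21 had -0.07 ± 0.81, with 0.50 on array 1 and -0.64 on array 2, and was brighter in Cy5 on both arrays whichever pool carried it.

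Ripply proteins recruit Groucho repressors (the Tle genes) to T-box factors and so turn them from activators to repressors. In that list 1 of 5 detected genes rose, Ripply2, against 0.209% of all detected genes. Ripply2 read 1343 in the mutant and 230 in the wildtype pool on array 1, and 737 and 328 on array 2. It was 4.30-fold higher (2.11 ± 0.03), and the mutant pool was higher on both arrays. Ripply2 acts at the forming somite border. Tle4 was at 0.28 ± 0.05, Tle1 at -0.10 ± 0.04 and Tle3 at 0.08 ± 0.10, and the list median was 0.08.

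Of 17 streak and tailbud genes that work beside Brachyury, all were detected, 1 fell (against 0.232% of all detected genes) and none rose (0.209%). They went both ways, with 6 below 0 and 6 above 0 on both arrays and a median of 0.00. The shares over all detected genes were 24.4% below and 23.3% above. Cyp26a1, a retinoic acid degrading enzyme, was 2.06-fold lower (-1.04 ± 0.08). Wnt3a, the tailbud ligand that acts in a loop with Brachyury, was at -0.46 ± 0.05, near the ratio of T, and it read 527 in the mutant and 458 in the wildtype pool on array 1, and 321 and 719 on array 2. Snai1 was at -0.45 ± 0.20, and Wnt8a, another streak ligand, at 0.45 ± 0.00. Wnt8a was dim, though, at 178 and 131 on array 1, and 155 and 129 on array 2, mutant before wildtype. Its wildtype reading on array 1 was under the 95th percentile of the negative controls there, 137. In bulk tissue, fewer cells that make T and less T RNA per cell cannot be told apart.

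T is also a notochord gene. Of 11 detected genes of the notochord list 1 rose (against 0.209% of all detected genes) and none fell (0.232%). It was Col2a1, a cartilage collagen gene that somites and notochord also use, which was 2.33-fold higher (1.22 ± 0.13). The notochord and floor plate factor Foxa2 was at 0.33 ± 0.10, Krt18 at 0.28 ± 0.03 and Krt8 at -0.23 ± 0.18, and the median was 0.04. Noto was not analysed here and Nog was not detected.

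For the limb and flank members, 22 lateral plate and limb genes were detected and none passed the size rule. Their median was -0.11, and 13 had ratios under 0 on array 1 and array 2 alike. Of all detected genes 24.4% did so, and both counts are after loess. With median centring the share of all genes was 8.51%, but the 22 listed genes were not recounted under it. The largest in either direction were Foxf2 (-0.58 ± 0.26), Pitx1 (-0.48 ± 0.07), which acts upstream of Tbx4 in the hindlimb, Prrx2 (-0.39 ± 0.08) and Hand2 (-0.39 ± 0.08). Above 0 on both arrays were 3 of the 22, named after their values were seen: Fgf10, a limb outgrowth ligand, at 0.36 ± 0.07, Sall1 at 0.17 ± 0.15 and Prrx1 at 0.04 ± 0.03.

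The somite genes, the setting of Tbx15 and Tbx18, had the most members past the size rule among these lists. Of 11 detected, 6 rose (against 0.209% of all detected genes) and none fell (0.232%), with a median of 0.67. They were Meox1 (4.34-fold higher), Tcf15 (4.06-fold), Foxc2 (2.56-fold), Foxc1 (2.27-fold), Mesp1 (1.63-fold) and Dll1 (1.59-fold), transcription factors of the somite and its precursor and, for Dll1, a Notch ligand. The other 5, named after their values were seen, were Dll3 (0.34), Meox2 (0.03), Pax3 (0.02), Mesp2 (-0.02) and Pax9 (-0.07). Tbx18 at 0.13 and Tbx15 at 0.03 were far smaller than the 6 and within the range of the 5. Tbx18 was dim, though, with signals of 138 to 152, and the scanner software's own ratio put it at 0.20. Whether Tbx18 follows the 6 somite genes that rose cannot be told at that signal. Uncx and Pax1 were not detected. Among the cardiopharyngeal partners of Tbx1, 1 of 10 passed as higher, Foxc2, against 0.209% of all detected genes. Foxc2 is in the somite list too. Fgf10 was at 0.36 ± 0.07 and Eya1 at 0.12 ± 0.17, and the median was 0.11.

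**Figure D4:**
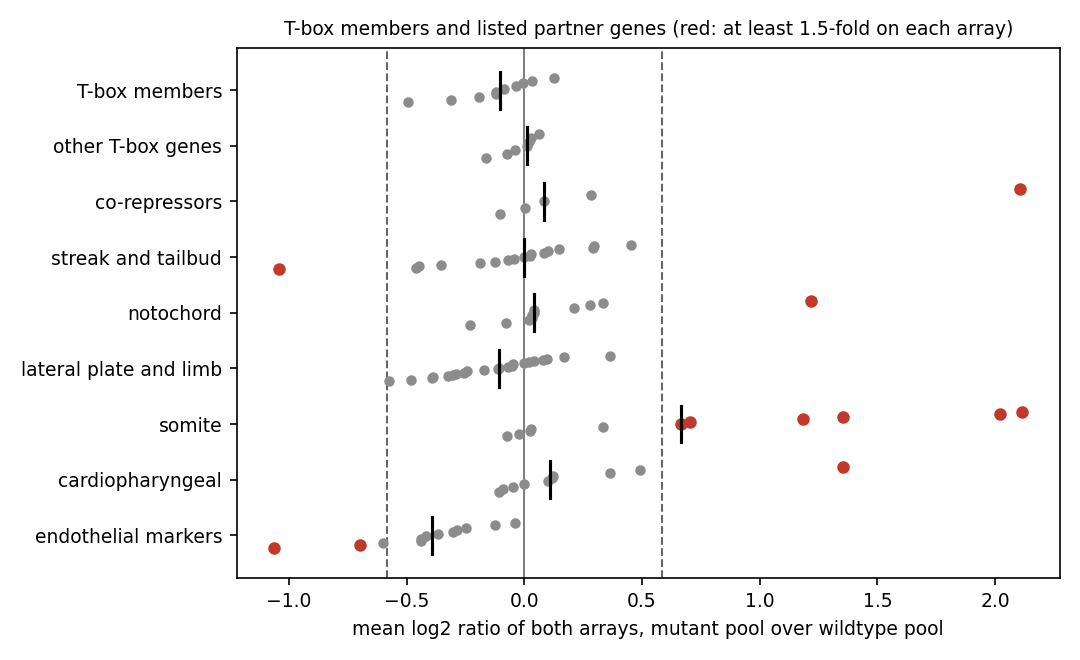
Mean log2 ratio of both arrays for each detected gene (points) of the T-box family and of the listed partner and marker genes, with list medians as black bars and genes past 1.5-fold on each array in red. The T-box members, with a median of -0.10, hold no red point, while 6 of the 11 somite genes do and the endothelial markers sit below 0.

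As to the pools, Cdx4 was 5.75-fold lower in the mutant pool (-2.52 ± 0.12), and Cdx2, with 1 intact copy, was at -0.05 ± 0.09. The sources used here do not say whether these probes fall inside the targeted stretch of either gene. All 11 tailbud and posterior markers, T among them, were detected, and 2 fell, against 0.232% of all detected genes. These were Cyp26a1 and Cdx4, and of Cdx4 the mutant embryos hold no intact copy. Of the 12 endothelial markers 2 fell, Cldn5 and Sox18, against 0.232% of all detected genes, and the other 10 stayed under the size rule. After loess, 11 of the 12 had ratios under 0 on array 1 and array 2, against 24.4% of all detected genes. The list median was -0.39. This count was not repeated with median centring, under which 8.51% of all genes lay below 0 on both arrays. The summed normalized signal of the 12 markers was 8644 to 9162 in the mutant and 11707 to 13017 in the wildtype pool. That sum mostly follows Egfl7 (-0.44 ± 0.08), by far the brightest of the 12. It read 7608 in the mutant and 6005 in the wildtype pool on array 1, and 3473 and 9460 on array 2. All 12 were above the negative controls, Tie1 only just so in the mutant pool on array 2 (133 against a 95th percentile of 131). The part of the vessels in the ratios of T and Tbx3 was not tested. No heart (5 detected of 7 found on the array, median -0.01) or blood (6 of 6, -0.08) marker passed. Myl4, Myh6, Myh7 and Hbb-bh1 were not found on the array. Nor did any limb bud and lateral plate (8 of 8, -0.07), allantois (5 of 5, -0.12) or forebrain (5 of 6, 0.01) marker pass. The allantois list includes Tbx4. The limb bud and lateral plate markers summed to 3977 to 4095 in the mutant and 4853 to 5068 in the wildtype pool. Pitx1, at -0.48 ± 0.07, was the brightest of these 8 and weighs most in that sum. On both arrays 4 of the 8 lay below 0 and 2 above, against 24.4% and 23.3% of all detected genes. The part of such tissue in the ratio of Tbx3 was not tested. The heart markers Myl7 and Myl2 were, like Tbx1 and Tbx5, not above the negative controls.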

How the data were processed

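Per the file headers, the deposited intensity of a spot is its mean pixel signal in each dye, not background-corrected, with a median local background beside it. Per the same headers, the deposited log10 ratio (red over green) had been detrended and LOWESS-normalized by the scanner software. That software is Agilent Feature Extraction, version 9.5.3 per the submitters' processing notes and 7.5.1 per the file headers. Signals were corrected by normexp (limma 3.58.1, R 4.3.3, offset 50), normalized by loess within each array with controls at weight 0, and turned to mutant over wildtype. Non-uniform spots were left out (205 and 90 gene spots), and saturated spots were kept. The brightest detected probe stood for a gene. Of the gene spots, 77.4% to 82.5% were well above background per pool and array. Symbols came from the RefSeq table of GRCm38.p6, where 19435 of 41013 probes were named by accession.

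All members were named, and from each partner list the genes past the size rule and otherwise up to 4 with the largest mean ratio in either direction, apart from 1 gene that is not reported here. The 3 genes nearest to T had the smallest Euclidean distance in both ratios. The members and lists were chosen with earlier results of these data known. The steps were tested on simulated data. The closing part gives the alternatives: background, normalization, probe choice, filter, threshold and single arrays.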

Additional observations from a re-analysis of the deposited data

How the results depend on the processing

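No paired analysis was possible because the values are already paired ratios within an array and, with a single pool per genotype, there is no test to which a replicate block could be added. The counts of 0 members higher and 0 lower at 1.5-fold held in every setting run except a lower threshold: at 1.3-fold on each array 1 member, T, was lower. The median of -0.10 was -0.13 with a normexp offset of 16 and -0.060 with the same-dye ratio across arrays. With replicate 1 or 2 left out it ranged from -0.12 to -0.087. The cause was not tested. The same-dye ratio and the filter on negative controls were chosen after seeing the data. Signal over background limits Tbx1 and Tbx5, and Tbx18 was only just above the negative controls in Cy3.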
